A study of Mus musculus with 48 samples.

Results

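Wee1, Ccnd1, Myc, Cdkn1a, Mdm2, Gadd45a, Gadd45b and Gadd45g are cell cycle and stress genes that have been linked to the circadian clock, and they were chosen by symbol from the deposited tables. The 8 genes were all found among 24453 genes with exon values. The study sequenced RNA from the livers of nono-/- mice and of wild type C57BL/6 mice that were 14 weeks old, were kept on a day of 12 h light and 12 h dark and had been given food in the dark phase only during the week before sampling. Samples were collected at 2 h intervals over 12 zeitgeber times (ZT, with lights on at ZT0). Every sample combined the livers of 2 mice and supplied both a total RNA library and a nuclear RNA library. The 4 groups were nono-/- nuclear RNA, wild type nuclear RNA, nono-/- total RNA and wild type total RNA, with 12 libraries each and 48 in all. The nono-/- label stands for mice without functional NONO, a nuclear RNA- and DNA-binding protein that is known to bind PERIOD proteins of the clock, and the labels do not name the allele.

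The hepatocyte of an adult liver rests outside the cell cycle and enters it after injury or loss of tissue. WEE1 is a kinase that phosphorylates and inhibits CDK1 and so holds cells before mitosis, while cyclin D1, encoded by Ccnd1, activates CDK4 and CDK6 in G1, and MYC is a transcription factor of growth and proliferation. Cdkn1a encodes p21, an inhibitor of cyclin-dependent kinases that p53 induces, MDM2 is the ubiquitin ligase that targets p53 for degradation and is itself a p53 target, and the small GADD45 proteins are induced by stress and bind p21, PCNA and the kinase MAP3K4. In mouse liver Wee1 is a known target of the CLOCK and BMAL1 activators, which bind E-box sequences.

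The values were read densities per library size and per kilobase (FPKM) over the exons and, separately, over the introns of each gene, so that levels can be set side by side between genes. Total RNA exons were read as mature mRNA, for the most part, and nuclear introns as RNA not yet spliced. Depth was recovered from the spacing of the smallest values and was 12.7 to 28.9 M reads (M, mega) per nono-/- nuclear library, 14.7 to 21.7 M per wild type nuclear library, 9.91 to 22.5 M per nono-/- total library and 11.8 to 23.9 M per wild type total library. Nono exons had 0 to 0.091 FPKM in nono-/- total RNA, with 8 of 12 libraries at 0, against 8.74 to 10.7 FPKM in wild type total RNA. Introns took 18.5% ± 2.41 of the reads of nono-/- total RNA and 22.1% ± 1.72 of those of wild type total RNA (SD, n = 12 each), and the part of this difference in the results below was not tested except where a value is given with that share as a covariate. The 6 hepatocyte markers summed to 34697 to 47971 FPKM in nono-/- total RNA and 29124 to 47300 FPKM in wild type total RNA, and markers of 7 other cell types, among them Kupffer and endothelial cells, were detected too. In total RNA the 8 Kupffer cell markers summed to a median of 158 FPKM in nono-/- and 125 FPKM in wild type livers, with nono-/- higher at 11 of 12 times, and the 6 stellate cell markers to 151 FPKM in nono-/- and 125 FPKM in wild type livers, with nono-/- higher at 10 of 12 times. Marker sums of the other cell types were also higher in nono-/- total RNA at most times. This held at 10 of 12 times for cholangiocyte markers and at 9 for hepatocyte, endothelial and erythroid markers. For T and B cell and neutrophil markers it held at 8. The median cholangiocyte sum was nevertheless lower in nono-/- than in wild type livers. In nuclear RNA, nono-/- sums were higher at 9 of 12 times for Kupffer cell and 8 for T and B cell markers. They were higher at 5 for cholangiocyte and erythroid markers, and at 3 for hepatocyte, endothelial, stellate and neutrophil markers. All marker sums are of FPKM as deposited, without the scaling used in the tests. On that basis the median gene differed by -0.20 in nuclear exons and 0.02 in total exons (log2, nono-/- minus wild type). The part of this shift in the marker sums was not tested. The part of these sums in the differences between genotypes was not tested in either fraction. In such bulk samples fewer cells of a type and less RNA per cell cannot be told apart. No time point had a second pool, so the spread in every test is that of the libraries around a smooth 24 h curve.

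Mature mRNA of the 8 genes spanned a wide range of levels, and the order was nearly the same in both genotypes. Mdm2 was highest, at 7.36 ± 0.789 FPKM in nono-/- and 7.47 ± 0.569 FPKM in wild type total RNA (SD, n = 12 each, here and for the other means over the day). Ccnd1 followed with 4.84 ± 1.07 FPKM in nono-/- and 4.83 ± 1.09 FPKM in wild type livers, and Wee1 with 2.93 ± 2.30 FPKM in nono-/- and 3.02 ± 2.14 FPKM in wild type livers. Gadd45g, Gadd45a and Cdkn1a formed a middle group. Gadd45g averaged 2.13 ± 2.06 FPKM in nono-/- and 1.56 ± 1.25 FPKM in wild type livers, Gadd45a 1.66 ± 0.648 FPKM in nono-/- and 1.53 ± 0.688 FPKM in wild type livers, and Cdkn1a 0.906 ± 0.840 FPKM in nono-/- and 1.65 ± 2.53 FPKM in wild type livers. These neighbours lay within each other's spread, as did Ccnd1 and Wee1, whereas Mdm2 and Ccnd1 did not overlap within 1 SD. Myc had 0.706 ± 0.304 FPKM in nono-/- and 0.706 ± 0.463 FPKM in wild type livers, and Gadd45b was lowest with 0.388 ± 0.164 FPKM in nono-/- and 0.372 ± 0.219 FPKM in wild type livers. Gadd45b thus rested on 98 reads over the 12 nono-/- libraries and 97 over the 12 wild type libraries, fell under the filter of a mean of 0.5 FPKM over both genotypes and was not tested. In total RNA, 7 of the 8 genes were tested, in nuclear exons 5 (without Cdkn1a, Myc and Gadd45b), and in nuclear introns, where the filter was a mean of 0.1 FPKM, 7 (without Gadd45b). The tested genes passed on values over all libraries and are not a sample of all 8.

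**Figure D1:**
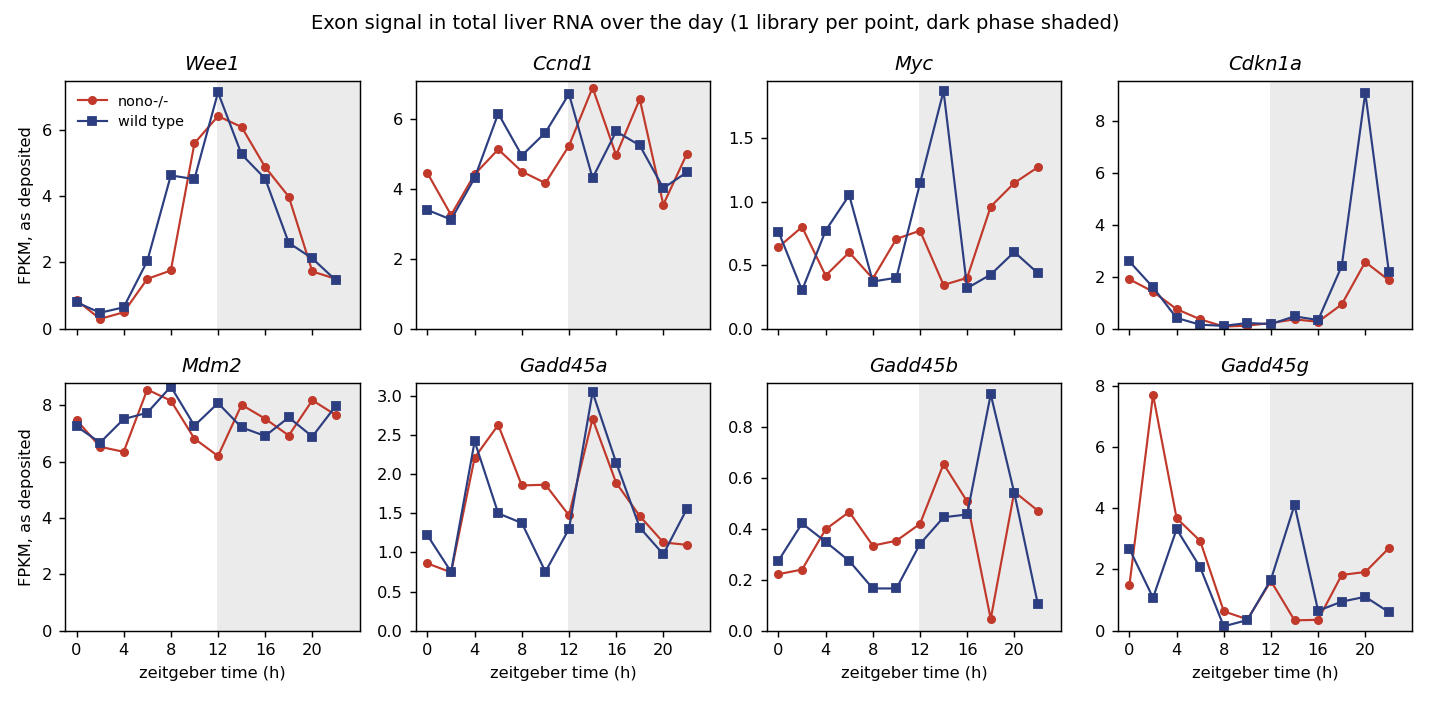
Exon FPKM in total liver RNA of the 8 genes (y axis, linear, from 0) against zeitgeber time in h (x axis), with 1 library per point, nono-/- as red circles, wild type as blue squares and the dark phase shaded. Wee1 is highest at ZT12 and Cdkn1a at ZT20 in both genotypes, Mdm2 stays between 6.19 and 8.66 FPKM, and the wild type ZT14 library carries the highest wild type values of Myc, Gadd45a and Gadd45g.

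Daily rhythms were tested with a cosine and a sine of 24 h fitted for each genotype in limma, with Benjamini-Hochberg adjustment over all genes tested and a threshold of 0.05. In total RNA exons 3 of 7 genes passed in nono-/- livers (Wee1, Cdkn1a and Gadd45g), where 29.6% of 11352 genes passed, and 3 of 7 passed in wild type livers (Wee1, Cdkn1a and Ccnd1), where 31.6% passed. The median fitted peak-to-trough ratio of the 7 genes was 2.17-fold in nono-/- and 1.53-fold in wild type livers, beside medians of 1.37-fold and 1.38-fold over all genes tested in nono-/- and wild type livers. The nono-/- median was the value of Gadd45a and the wild type median that of Gadd45g. Neither rhythm was called there (limma adjusted p = 0.0949 and 0.819). A fitted ratio also grows with scatter, so these medians do not show stronger rhythms of the list. In nuclear exons 1 of 5 genes passed in each genotype, Wee1 both times, where 30.8% of 10500 genes passed in nono-/- and 10.5% in wild type nuclei. In nuclear introns Wee1 and Cdkn1a, 2 of 7, passed in each genotype, where 31.7% of 12055 genes passed in nono-/- and 20.7% in wild type nuclei. These counts of 3 of 7, 1 of 5 and 2 of 7 are not far from the backgrounds, so the number of rhythmic genes is not a result about the list.

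Wee1 on chromosome 7 (mm10, chr7:110122059-110143299, plus strand) had a large rhythm in every measure. Its total RNA exons had a lowest value of 0.296, a median of 1.74 and a highest value of 6.42 FPKM in nono-/- livers, against 0.482, 2.36 and 7.14 FPKM in wild type livers. The lowest library was at ZT2 and the highest at ZT12 in both genotypes, and the ranges of the genotypes overlapped almost in full. The fitted curve spanned 12.3-fold from trough to peak in nono-/- livers (log2 3.62 ± 0.32 SE, limma adjusted p = 5.21e-07) and 8.76-fold in wild type livers (log2 3.13 ± 0.32 SE, limma adjusted p = 2.50e-06). In nuclear exons the span was 5.58-fold in nono-/- and 6.75-fold in wild type nuclei (limma adjusted p = 0.000130 and 4.25e-05), and in nuclear introns 7.56-fold in nono-/- and 8.03-fold in wild type nuclei (limma adjusted p = 7.11e-05 and 3.89e-05). Unspliced and mature Wee1 RNA thus rose and fell together through the day in both genotypes.

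The fitted Wee1 peak lay 0.93 to 1.28 h later in nono-/- livers, and the curves were not called different (limma adjusted p = 0.495 in total exons). Mature mRNA peaked at ZT13.9 ± 0.34 h (SE) in nono-/- and ZT13.0 ± 0.39 h in wild type livers, a difference of 0.93 h with a 95% interval of -0.16 to 2.02 h. For nuclear exons the difference was 1.08 h (-0.33 to 2.48 h), and for nuclear introns, with peaks at ZT13.7 in nono-/- and ZT12.4 in wild type nuclei, 1.28 h (-0.08 to 2.63 h). The 3 intervals include 0, and the measures share liver pools. On the rising limb at ZT8 the exons had 1.76 FPKM (114 reads) in nono-/- and 4.63 FPKM (301 reads) in wild type total RNA, and the introns 0.677 FPKM in nono-/- and 0.956 FPKM in wild type nuclei. On the falling limb at ZT18 the order was the other way round, with 3.99 FPKM in nono-/- and 2.59 FPKM in wild type total RNA. The rising limb was not uniform, however. In scaled total exons the largest nono-/- deficit of the day was at ZT8 and the largest nono-/- excess at ZT10. Over the whole day the Wee1 difference was -0.16 ± 0.16 (log2, nono-/- minus wild type, SE, limma adjusted p = 0.574) in total exons, with nono-/- higher at 6 of 12 times. The whole of Wee1 lies within an annotated antisense gene, 1600010M07Rik, and since the sources used here do not say whether the authors counted by strand, reads of the pair cannot be separated.

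**Figure D2:**
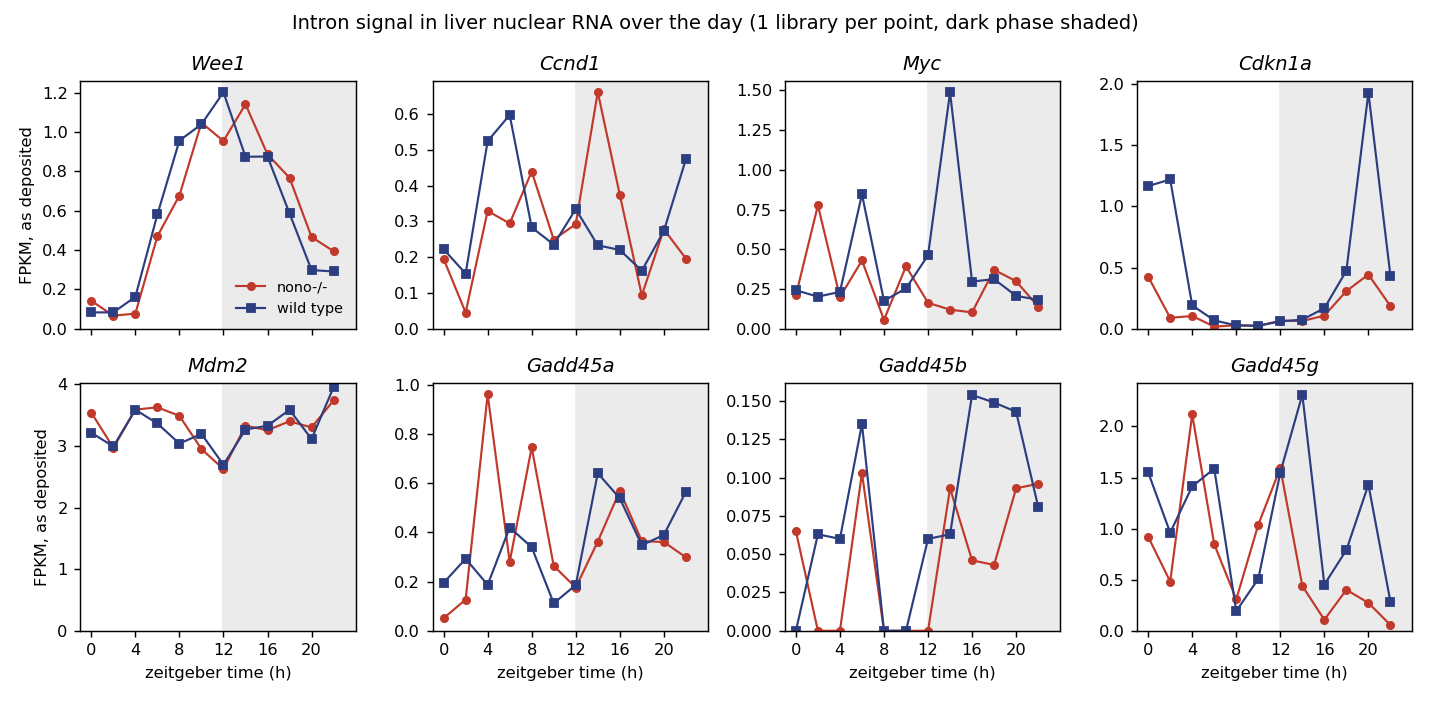
Intron FPKM in liver nuclear RNA of the 8 genes (y axis, linear, from 0) against zeitgeber time in h (x axis), with 1 library per point, nono-/- as red circles, wild type as blue squares and the dark phase shaded. Wee1 introns follow a similar curve in both genotypes, while the wild type values of Cdkn1a at ZT20, ZT0 and ZT2 (1.93, 1.17 and 1.22 FPKM) stand above the nono-/- values (0.443, 0.426 and 0.089 FPKM).

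Cdkn1a on chromosome 17 (chr17:29093769-29100722, plus strand) peaked late in the night, and its unspliced RNA was lower in nono-/- nuclei. Nuclear introns had a lowest value of 0.017, a median of 0.0965 and a highest value of 0.443 FPKM in nono-/- nuclei, against 0.024, 0.180 and 1.93 FPKM in wild type nuclei. From ZT6 to ZT14 the values were low in both genotypes, so the ranges overlapped, and the wild type libraries of ZT18, ZT20, ZT0 and ZT2 lay above every nono-/- library. Over the day the introns fell by 0.83 ± 0.24 in nono-/- nuclei (log2, nono-/- minus wild type, SE, limma adjusted p = 0.0216, range over the alternatives 0.00792 to 0.0631), with lower values at 10 of 12 times. This was 1 of 7 genes called in nuclear introns, where 18.1% of 12055 genes were called, 7.91% higher and 10.2% lower. The call rests on few reads, 217 over the 12 nono-/- libraries and 514 over the 12 wild type libraries, and on ZT2 for its call, since without that time it was -0.67 (limma adjusted p = 0.0631). The nono-/- nuclear library of ZT2 stood apart: its 6 hepatocyte markers summed to 504 FPKM, where the other 11 libraries of its group had 924 FPKM or more, and its sums for Kupffer, endothelial, cholangiocyte and erythroid markers were the lowest of the group too. Its scaling factors, 0.667 for exons and 0.844 for introns, were also the lowest of the group, and their part in the Cdkn1a call was not tested beyond the fit without ZT2. With the share of reads in exons as a covariate it was -0.92 (limma adjusted p = 0.0450), and with time as a block the adjusted p was 0.0309.

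The exon measures of Cdkn1a had lower means in nono-/- libraries and passed no test of the genotypes. Nuclear exons had 0 to 0.404 FPKM and 82 reads over the 12 nono-/- libraries, against 0.028 to 2.88 FPKM and 264 reads over the 12 wild type libraries, which was under the filter. Without that filter the nuclear exon difference was -0.83 (limma adjusted p = 0.0590). Mature mRNA had a lowest value of 0.083, a median of 0.559 and a highest value of 2.57 FPKM in nono-/- livers, against 0.11, 0.446 and 9.09 FPKM in wild type livers. The ZT20 library was the highest in both genotypes, with 50 reads in nono-/- and 204 in wild type, and ZT8 was the lowest in both. The difference over the day was -0.30 ± 0.24 (SE, limma adjusted p = 0.457), with lower values in nono-/- at 9 of 12 times.

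The rhythm of Cdkn1a was called in total exons and nuclear introns of both genotypes. In total exons the fitted span was 10.6-fold with a peak at ZT22.3 in nono-/- livers (limma adjusted p = 0.000103) and 19.9-fold with a peak at ZT21.3 in wild type livers (limma adjusted p = 4.97e-06). In nuclear introns it was 5.62-fold with a peak at ZT20.9 in nono-/- nuclei (limma adjusted p = 0.00292) and 17.8-fold with a peak at ZT22.2 in wild type nuclei (limma adjusted p = 3.18e-05). The smaller span in nono-/- nuclei had an unadjusted p of 0.0275 in the test of the difference between the curves and an adjusted p of 0.740. An annotated gene on the other strand, AC167363.2, covers 693 bases at the 5′ end of Cdkn1a, and its reads cannot be separated from those of Cdkn1a.

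**Figure D3:**
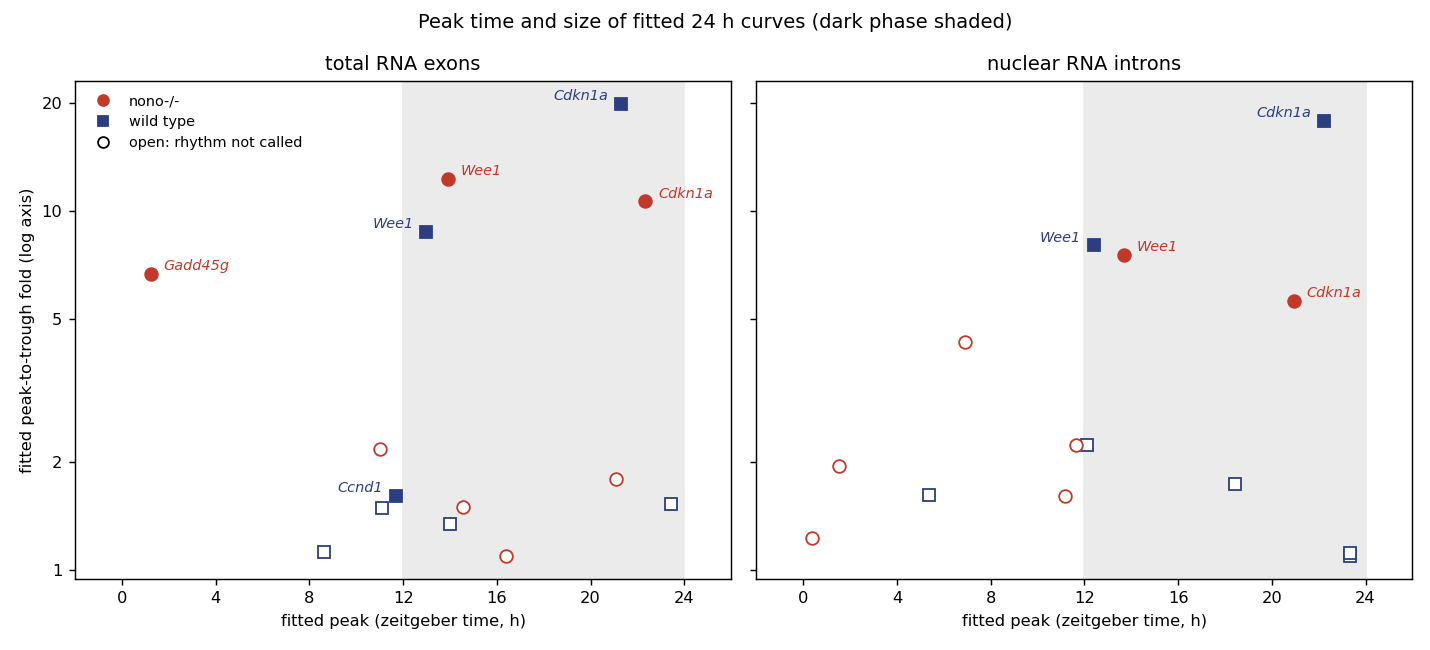
Fitted peak time in h of zeitgeber time (x axis) against the fitted peak-to-trough ratio (y axis, log scale) of the tested genes in total RNA exons (left) and nuclear RNA introns (right), nono-/- as red circles and wild type as blue squares, filled where limma called a rhythm, with the dark phase shaded. Filled points of Wee1 lie between ZT12.4 and ZT13.9 and those of Cdkn1a between ZT20.9 and ZT22.3.

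Ccnd1 on chromosome 7 (chr7:144929931-144939925, minus strand) varied about 2.1-fold between its lowest and highest library. Total exons had a lowest value of 3.25, a median of 4.73 and a highest value of 6.89 FPKM in nono-/- livers, against 3.12, 4.71 and 6.71 FPKM in wild type livers. ZT2 gave the lowest value in both genotypes, and the highest was at ZT14 in nono-/- and at ZT12 in wild type livers. The ranges overlapped almost in full, and the difference over the day was -0.01 ± 0.09 (log2, SE, limma adjusted p = 0.956). The fitted span was 1.49-fold with a peak at ZT14.5 in nono-/- livers (limma adjusted p = 0.0502) and 1.60-fold with a peak at ZT11.7 in wild type livers (limma adjusted p = 0.0188). These p-values lie on both sides of the threshold, and the difference between the curves had an adjusted p of 0.533. The wild type call was lost with the values as deposited (0.0501), with 12 h terms added (0.0744), without ZT2 (0.0540) and without ZT12 (0.0688), all limma adjusted p. The nono-/- rhythm passed with a 5 times larger pseudocount (0.0495) and without ZT0 (0.0360), ZT6 (0.0476) or ZT20 (0.0234). Ccnd1 nuclear introns had 0.045 to 0.661 FPKM in nono-/- nuclei and 0.154 to 0.597 FPKM in wild type nuclei and passed no test. The last 1771 bases of Ccnd1 are shared with LTO1 on the other strand.

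Myc on chromosome 15 (chr15:61985341-61990361, plus strand) was low and irregular. Total exons had a lowest value of 0.345, a median of 0.676 and a highest value of 1.27 FPKM in nono-/- livers, against 0.303, 0.522 and 1.87 FPKM in wild type livers. The highest value was at ZT22 in nono-/- and at ZT14 in wild type livers, where the nono-/- library had 0.345 FPKM, its lowest. The difference over the day was 0.07 ± 0.24 (log2, SE, limma adjusted p = 0.892) in total exons and -0.43 ± 0.32 (limma adjusted p = 0.366) in nuclear introns, and no rhythm was called (limma adjusted p = 0.355 in nono-/- and 0.613 in wild type total exons).

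Mdm2 on chromosome 10 (chr10:117688875-117710758, minus strand) had the smallest ratio of its highest to its lowest total RNA library among the 8 genes. Total exons ran from 6.19 to 8.55 FPKM with a median of 7.5 FPKM in nono-/- livers and from 6.67 to 8.66 FPKM with a median of 7.39 FPKM in wild type livers. The highest library was 1.38 times the lowest in nono-/- and 1.30 times in wild type livers, and the ranges overlapped. The difference over the day was -0.04 ± 0.06 (log2, SE, limma adjusted p = 0.717) in total exons, 0.13 ± 0.07 (0.178) in nuclear exons and 0.03 ± 0.05 (0.736) in nuclear introns. Its nuclear introns were the best covered of the 8 genes, with 16237 reads over the 12 nono-/- libraries and 13160 over the 12 wild type libraries. Rhythms of Mdm2 were not called in any measure, with fitted spans of 1.09-fold in nono-/- and 1.12-fold in wild type total exons.

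The promoters of Gadd45b and Gadd45g are shown because an E-box, the letters that CLOCK and BMAL1 bind, was found upstream of both, and that of Cdkn1a because its introns differed between genotypes. RefSeq promoter entries (GRCm38.p6) with the window of 250 bases before to 50 after a start were matched for Cdkn1a, Gadd45a, Gadd45b, Gadd45g and Mdm2, 5 of the 8 genes with 6 starts, and not for Wee1, Myc and Ccnd1. The motifs searched on both strands were CACGTG (E-box), CACGTT (an E-box variant), TTATGTAA or TTACGTAA (D-box), TAGGTCA (part of a ROR and REV-ERB element) and TGACGTCA (CRE). Over 32851 promoters of the same length these were held by 7.15%, 4.68%, 1.06%, 2.61% and 1.79%. The 250 bases before the start are given on the plus strand for Gadd45b (chr10:80929841-80930090), Gadd45g (chr13:51846425-51846674) and Cdkn1a (chr17:29093519-29093768), 5′ to 3′, with a motif match in capitals.
Gadd45b: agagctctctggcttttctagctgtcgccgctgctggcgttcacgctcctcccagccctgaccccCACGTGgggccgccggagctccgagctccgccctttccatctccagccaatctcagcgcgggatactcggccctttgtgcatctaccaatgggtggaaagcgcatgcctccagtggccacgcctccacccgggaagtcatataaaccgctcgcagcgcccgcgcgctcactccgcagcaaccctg
Gadd45g: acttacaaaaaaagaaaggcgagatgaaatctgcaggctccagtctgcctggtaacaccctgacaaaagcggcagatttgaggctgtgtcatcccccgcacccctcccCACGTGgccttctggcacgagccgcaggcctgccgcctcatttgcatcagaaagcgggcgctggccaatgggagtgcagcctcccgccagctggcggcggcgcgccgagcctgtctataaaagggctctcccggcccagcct
Cdkn1a: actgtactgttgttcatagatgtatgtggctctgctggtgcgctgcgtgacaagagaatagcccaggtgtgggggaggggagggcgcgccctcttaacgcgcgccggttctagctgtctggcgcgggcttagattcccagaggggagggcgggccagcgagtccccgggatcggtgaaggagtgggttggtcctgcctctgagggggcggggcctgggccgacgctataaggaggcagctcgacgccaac
CACGTG began 185 bases before the start of Gadd45b and 142 bases before that of Gadd45g. None of the letters searched was in the other windows, which says nothing about binding there or elsewhere. A match is likewise a description of the letters, and the rhythms of the 2 genes with a match are given next.

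Gadd45g on chromosome 13 (chr13:51846675-51848474, plus strand) swung widely between libraries. Total exons had a lowest value of 0.341, a median of 1.72 and a highest value of 7.70 FPKM in nono-/- livers, against 0.146, 1.09 and 4.11 FPKM in wild type livers. The highest library was at ZT2 in nono-/- (82 reads, in the shallowest library of all) and at ZT14 in wild type livers (63 reads), so the extremes of the genotypes fell at different times. In the opposite genotype, wild type had 1.08 FPKM at ZT2, near its median, and nono-/- had 0.341 FPKM at ZT14, its lowest value. The rhythm was called in nono-/- livers (6.69-fold, peak at ZT1.25, limma adjusted p = 0.0447) and not in wild type livers (1.53-fold, limma adjusted p = 0.819), and the difference between the curves had an adjusted p of 0.525. The nono-/- call was lost without a filter on low values (0.0827), with 12 h terms added (0.102) and without any of 9 times, ZT2, ZT4, ZT6, ZT10, ZT14, ZT16, ZT18, ZT20 and ZT22, with a highest adjusted p of 0.159 without ZT2. The difference over the day was 0.30 ± 0.42 (log2, SE, limma adjusted p = 0.708) in total exons and -0.74 ± 0.43 (0.231) in nuclear introns, where nono-/- nuclei had 128 reads and wild type nuclei 170 over the 12 libraries.

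Gadd45a on chromosome 6 (chr6:67035096-67037407, minus strand) moved in a narrower range. Total exons had a lowest value of 0.746, a median of 1.66 and a highest value of 2.71 FPKM in nono-/- livers, against 0.753, 1.35 and 3.05 FPKM in wild type livers. ZT2 was the lowest and ZT14 the highest library in both genotypes, and ZT4 was high in both, at 2.21 FPKM in nono-/- and 2.42 FPKM in wild type livers. No rhythm was called (limma adjusted p = 0.0949 in nono-/- and 0.672 in wild type livers), though without ZT4 the nono-/- rhythm passed (0.0499), and the difference over the day was 0.10 ± 0.20 (log2, SE, limma adjusted p = 0.790). In nuclear exons Gadd45a averaged 0.720 ± 0.384 FPKM in nono-/- and 0.538 ± 0.267 FPKM in wild type nuclei, a difference of 0.51 ± 0.22 (limma adjusted p = 0.0775) with higher values in nono-/- at 9 of 12 times, on 217 reads in nono-/- and 137 in wild type nuclei. That difference passed in the fit with 12 h terms (adjusted p = 0.0449) and without ZT0 (0.0461). Over all alternatives it ran from 0.33 to 0.61, with limma adjusted p from 0.0449 to 0.259. Nuclear introns of Gadd45a differed by -0.01 ± 0.30 (log2, SE, limma adjusted p = 0.979). E230016M11Rik on the other strand overlaps 809 bases of Gadd45a.

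Gadd45b on chromosome 10 (chr10:80930091-80932204, plus strand) had 0.046 to 0.654 FPKM in nono-/- livers, with a median of 0.409 FPKM, and 0.104 to 0.927 FPKM with a median of 0.345 FPKM in wild type livers. The lowest nono-/- library, at ZT18, held 1 read, and the wild type library of that time was its group's highest with 16 reads. Without the filter the difference over the day was 0.06 (log2, limma adjusted p = 0.925), and no rhythm was called (limma adjusted p = 0.785 in nono-/- and 0.448 in wild type livers). Counts this low leave large differences possible.

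The wild type ZT14 library was the highest of its group for Myc, Gadd45a and Gadd45g at once. Its total exons had 1.87, 3.05 and 4.11 FPKM of the 3 genes, and the nuclear introns of the same liver pool had 1.49, 0.641 and 2.31 FPKM, also the highest of the wild type nuclear group for each. The nono-/- pool of ZT14 was the highest of its group for Gadd45a exons (2.71 FPKM) but the lowest for Myc (0.345 FPKM) and Gadd45g (0.341 FPKM). The 6 hepatocyte markers summed to 47300 FPKM in the wild type ZT14 total library, the highest of its group, and the part of this in the 3 genes' values was not tested. Marker sums of 7 other cell types ranked between the sixth and the eleventh of 12 there, with 86.8 FPKM for 8 Kupffer cell markers, where the group ran from 75.2 to 191 FPKM, and 1.86 FPKM for 3 neutrophil markers, where it ran from 1.21 to 56.4 FPKM. With 1 pool of 2 mice at that time, the time of day and the pool cannot be told apart.

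Between genotypes 0 of the 7 tested genes were called in total RNA exons (limma, 0 with an unadjusted p under 0.05), where 10.9% of 11352 genes were called (4.45% higher and 6.48% lower in nono-/-). In nuclear exons 0 of 5 were called (limma, 1 with an unadjusted p under 0.05, Gadd45a), where 34.3% of 10500 were called (15.7% higher and 18.6% lower), and in nuclear introns 1 of 7, Cdkn1a. The median difference of the tested genes was -0.01 in total exons, 0.16 in nuclear exons and -0.16 in nuclear introns (log2, nono-/- minus wild type), beside medians over all genes of 0.00 in total exons, 0.00 in nuclear exons and -0.01 in nuclear introns. With the values as deposited the nuclear exon median over all genes moved to -0.20, so the nuclear exon values are differences relative to the median gene. In limma's test of the difference between the 24 h curves, no gene tested in any measure had an adjusted p under 0.05. Of these 8 genes the test held 7 in total exons, 5 in nuclear exons and 7 in nuclear introns. Over all genes, 1207 of 11352 in total exons, 545 of 10500 in nuclear exons and 800 of 12055 in nuclear introns had an unadjusted p under 0.05.

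**Figure D4:**
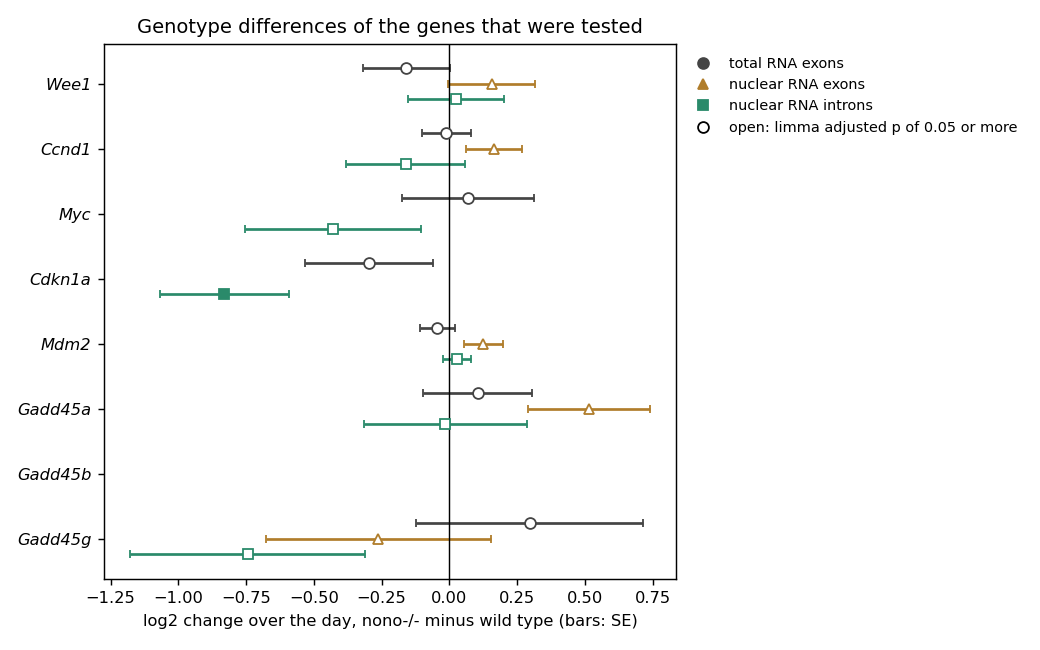
Difference over the day of each tested gene (x axis, log2, nono-/- minus wild type, with the SE as bars) in total RNA exons (circles), nuclear RNA exons (triangles) and nuclear RNA introns (squares), filled where the limma adjusted p was under 0.05. The single filled point is Cdkn1a in nuclear introns at -0.83, and Gadd45b has no point because it was not tested.

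Nuclear and total exon levels stood in different proportions from gene to gene. Exons took 16.3% of the reads in nono-/- nuclear, 17.6% in wild type nuclear, 70.8% in nono-/- total and 69.1% in wild type total RNA, so the ratio of both levels ranks genes against each other and is not the share of a gene's RNA in the nucleus. The ratio was taken within a liver sample, from exon FPKM scaled within each fraction and with 0.1 added. It was 0.861 in nono-/- and 0.765 in wild type livers for Mdm2, and 0.140 in nono-/- and 0.124 in wild type livers for Ccnd1 (geometric means, n = 12 each). The order of the genotypes depends on this scaling for both genes. With FPKM as deposited the log2 difference, nono-/- minus wild type, was -0.062 for Mdm2 and -0.025 for Ccnd1. Wee1 had 0.391 in nono-/- and 0.314 in wild type livers, Gadd45a 0.480 in nono-/- and 0.362 in wild type livers, and Gadd45g 0.327 in nono-/- and 0.481 in wild type livers. On the log2 scale the median over 9871 genes was -1.34 in nono-/- and -1.33 in wild type livers, with Mdm2 above it at -0.22 in nono-/- and -0.39 in wild type livers and Ccnd1 below it at -2.83 in nono-/- and -3.01 in wild type livers. The ratio was called different in 0 of the 5 genes (limma, 1 with an unadjusted p under 0.05, Wee1, adjusted p = 0.104), where 19.6% of 9871 genes were called. Without ZT0, Ccnd1 and Gadd45g passed (limma adjusted p = 0.0468 and 0.0381), and without ZT4, Wee1 did (0.0419). Leaving out ZT0 also raised the calls over all genes, to 3434 of 9897 from 1934 of 9871.

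The total RNA profiles of the genes resembled different partners. Over the 24 total RNA libraries the log2 exon values most correlated with Wee1 were those of the clock genes Per3 (r = 0.96), Tef (r = 0.95) and Ciart (r = 0.95). For Cdkn1a they were those of Acly, which encodes ATP citrate lyase of fatty acid synthesis (r = 0.90), Mrap (r = 0.88) and Celsr1 (r = 0.88), and for Ccnd1 those of Wee1 (r = 0.75), Spc25 (r = 0.74) and Sel1l3 (r = 0.74). Myc was closest to Cish, a cytokine-induced SOCS family gene (r = 0.78), Zfp12 (r = 0.63) and Gadd45g (r = 0.62). Gadd45g was closest to Pfdn5, Apoc1 and S100a1 (r = 0.81 each), Gadd45a to Khdrbs1 (r = 0.75), Dact1 (r = 0.70) and Rps25 (r = 0.66), and Mdm2 to Gna13 (r = 0.71), Topbp1 (r = 0.70) and Dnaaf2 (r = 0.67). Among the 8 genes Wee1 ran against Gadd45g (r = -0.58) and Cdkn1a (r = -0.50), and Cdkn1a against Ccnd1 (r = -0.54). These are descriptions over 24 libraries that share 12 times of day, and each pair of values shares its library and depth.

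Genes around these 8 were looked up in lists chosen with earlier results of these data known. Of 11 G2/M kinases and phosphatases around Wee1, 2 were tested in total exons and 3 in nuclear introns, and 0 levels were called in either (limma, 0 with an unadjusted p under 0.05). Of all genes 10.9% were called in total exons and 18.1% in nuclear introns. Cdk1, the target of WEE1, was under the filter in both. Chek2, a checkpoint kinase, was rhythmic in wild type livers (2.35-fold, limma adjusted p = 0.00156) with a fitted 1.14-fold in nono-/- livers (0.777), and the difference of its curves was not called. Of 16 G1 cyclins, CDKs and CDK inhibitors, 11 were tested in total exons and 1 fell (6.48% of all genes did), Cdk6, a partner of cyclin D1, with 2.76 ± 0.785 FPKM in nono-/- and 3.27 ± 0.729 FPKM in wild type livers (log2 -0.28 ± 0.08 SE, limma adjusted p = 0.0252). In nuclear introns, where 12 were tested, Cdk6 was the 1 gene that rose (0.28 ± 0.07, limma adjusted p = 0.0103), the opposite direction to its mature RNA. Of all genes 7.91% rose there. The list's median difference was 0.01 in total exons and 0.12 in nuclear introns. In total exons 4 of the 11 were rhythmic in nono-/- and 5 in wild type livers, near the 29.6% and 31.6% of all genes in nono-/- and wild type livers. Among them were Cdk6, with a peak at ZT12.8 in both, and Ccne2, a cyclin of the G1 to S transition.

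Of 23 p53 pathway genes, 15 were tested in total exons and 18 in nuclear introns. In total exons Ccng1, the cyclin G1 gene, rose by 0.34 ± 0.10 (log2, SE, limma adjusted p = 0.0334) and Zmat3, a p53-induced RNA-binding protein gene, fell by 0.42 ± 0.10 (0.0134). In nuclear introns Btg2, an antiproliferative immediate early gene, rose by 0.93 ± 0.19 (limma adjusted p = 0.00384), with 1.68 ± 0.834 FPKM in nono-/- and 0.849 ± 0.356 FPKM in wild type nuclei, and Bax, a mediator of apoptosis, fell by 0.31 ± 0.10 (0.0374). The other 13 in total exons and 16 in nuclear introns did not pass, and the list's median difference was 0.04 in total exons and 0.03 in nuclear introns. Over all genes 10.9% were called in total exons and 18.1% in nuclear introns. In nuclear exons 13 of the list were tested, of which 6 rose and 1 fell, with a median difference of 0.25. These are changes relative to the median gene, which as deposited differed by -0.20 in nuclear exons. Whether the 6 rises depend on the scaling was not tested. Of all genes 15.7% rose and 18.6% fell there. The reason for this difference of the list in nuclear exons was not tested.

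Beside the level counts of the next 3 lists, 10.9% of all genes were called in total exons and 18.1% in nuclear introns. In the MYC network, 9 of 10 genes were tested in total exons, where limma called 0 (4 with an unadjusted p under 0.05, median difference -0.15), and 9 in nuclear introns, where 1 fell, Mxd4, a MAX partner that opposes MYC (-0.50 ± 0.12, limma adjusted p = 0.00857). Of 8 GADD45 partners, 7 were tested in total exons, where limma called 0 (3 with an unadjusted p under 0.05, median difference 0.05), and 8 in nuclear introns, where Mapk9, a JNK kinase, rose by 0.24 ± 0.05 (limma adjusted p = 0.00381) and Pcna, the replication clamp, by 0.37 ± 0.12 (0.0439). In nuclear exons 7 of the partners were tested, of which 2 rose and 2 fell, where 34.3% of all genes were called. Mapk14, the p38 kinase downstream of MAP3K4, was rhythmic in total exons with 1.70-fold in nono-/- (limma adjusted p = 0.000113) and 1.84-fold in wild type livers (1.52e-05). Of 15 proliferation markers, 7 were tested in total exons, where limma called 0 levels (3 with an unadjusted p under 0.05, median difference 0.20). Of these 7, 3 were rhythmic in nono-/- (Rrm2, Mcm5 and Mcm2) and 1 in wild type livers (Rrm2), where 29.6% of all genes were in nono-/- and 31.6% in wild type livers, and no difference between the curves was called. In nuclear introns 5 were tested and Tk1 fell (-0.32 ± 0.09, limma adjusted p = 0.0202).

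Of 18 core clock and E-box output genes, 16 were tested in total exons, and 15 were rhythmic in each genotype (29.6% of all genes were in nono-/- and 31.6% in wild type livers). The list's median span was 6.96-fold in nono-/- and 8.0-fold in wild type livers. Wee1, with 12.3-fold in nono-/- and 8.76-fold in wild type livers, lay above both medians, as did Cdkn1a, while the span of Ccnd1 was below them. Hlf and Per1 fell in total exons, by 0.43 ± 0.10 (log2, SE, limma adjusted p = 0.0121) and 0.93 ± 0.22 (0.0131). These were 2 of the 16 tested, where 6.48% of all genes fell. Per1, a repressor of the clock, also fell in nuclear introns (-0.88 ± 0.27, limma adjusted p = 0.0299), and Bhlhe40, which encodes the repressor DEC1, rose there (0.73 ± 0.17, 0.00740). Of 18 tested in nuclear introns, 1 thus fell and 1 rose, where 10.2% of all genes fell and 7.91% rose. With the share of reads in introns (total RNA) or exons (nuclear RNA) of each library as a covariate, 5 of the 14 level calls named in these lists still passed, those of Cdk6, Btg2, Mapk9, Bhlhe40 and Tk1 in nuclear introns, and the 5 in total exons did not (limma adjusted p = 0.188 to 0.382). The log2 differences of these 5 stayed at a similar size with the covariate, with -0.23 for Cdk6, -0.46 for Zmat3, 0.33 for Ccng1, -0.42 for Hlf and -0.86 for Per1. All 14 kept their sign with that covariate and with the values as deposited. The nuclear exon calls counted in the p53 and GADD45 lists were not among these 14. With the values as deposited 13 of the 14 still passed, and Bax in nuclear introns did not (limma adjusted p = 0.0577).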

How the data were processed

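Liver RNA of nono-/- and wild type mice was measured as exon FPKM and intron FPKM. Per the file headers, the authors made the deposited FPKM with HOMER's analyzeRepeats.pl on mm10 (options -fpkm, -count exons or introns, -condenseGenes), 1 value per gene and library. Per the submitters' processing notes, FastQC 0.11.2 and STAR 2.4.0k were used. HOMER's version and any strand setting are not given in the sources used here. Since HOMER condensed transcripts to 1 entry per gene, isoforms are not resolved. In the column names the library numbers run in blocks by group, so library handling and group cannot be told apart.

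FPKM is not a count, and no count test was used. Values of each fraction were scaled so that each library's median ratio to a geometric mean over libraries was equal, and tested with limma 3.58.1 (R 4.3.3) on log2(FPKM + 0.1) for exons and log2(FPKM + 0.05) for introns, which understates changes of low genes. The filter was a mean over the 24 libraries of a fraction of 0.5 FPKM for exons and 0.1 FPKM for introns, which left 11352 in total exons, 10500 in nuclear exons and 12055 in nuclear introns. The model held genotype, a cosine and a sine of 24 h for each genotype, with a trended variance and Benjamini-Hochberg adjustment over all genes tested (threshold 0.05). Nuclear to total ratios were differences of log2 exon values within a liver sample, over 9871 genes. Intervals of peak differences are at 95% from the t distribution. Pools at different times are separate animals, but no time had replicates, so p-values measure the scatter around the fitted curve. The fits were tested on simulated data. Figures were drawn with matplotlib 3.10.9 in Python 3.11.15.

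Reads per gene were recovered as whole numbers (within 0.1 of a read) from the FPKM steps in every library; they show precision and entered no test. No 2 libraries held identical values, and every value column was mapped to a sample.

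The 8 genes and the lists were chosen with earlier results of these data known. Named beyond the 8 genes were Nono, up to 4 tested genes with the smallest p past the threshold in each list, and the 3 genes most correlated with each gene over the 24 total RNA libraries. A smaller set of these is described. Alternatives were unscaled values, a 5 times larger pseudocount, no filter, added 12 h terms, time as a block, a library covariate and each time left out.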

Additional observations from a re-analysis of the deposited data

How the results depend on the processing

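Of 1334 alternative values for the 8 genes, 1282 kept their direction and their side of the threshold, 16 lost a call and 11 gained one. The other 25 turned direction, and in these the main and the alternative value were both without a call. With FPKM as deposited, the log2 differences became 0.0072 for Ccnd1 in total exons, -0.015 for Wee1, -0.017 for Ccnd1 and -0.087 for Mdm2 in nuclear exons, and -0.025 for Ccnd1 and -0.062 for Mdm2 in the nuclear to total ratio. With the share of reads in introns or exons as a covariate, Wee1 became 0.025 and Mdm2 0.029 in total exons and Ccnd1 0.12 in nuclear introns, and with a 5 times larger pseudocount Gadd45a introns became 0.017. Leaving out each time in turn gave -0.095 to 0.28 for Myc and -0.084 to 0.026 for Ccnd1 in total exons, and -0.011 to 0.075 for Wee1 and -0.22 to 0.092 for Gadd45a in nuclear introns. The count of these genes called between genotypes in nuclear exons was 1 with 12 h terms (Gadd45a) and 0 to 1 with a time left out, in nuclear introns 0 to 1 and in the ratio 0 to 2. Without a filter 2 genes were rhythmic in wild type nuclear exons, Cdkn1a being added.

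Over all genes, the 1241 genotype calls in total exons were 23 with the intron share as a covariate and 715 to 1272 with a time left out; the 3604 in nuclear exons were 931 with the exon share and 2114 to 4544; and the 2177 in nuclear introns were 816 and 1133 to 2918. The 1934 ratio calls were 603 to 3434 with a time left out. With 12 h terms the rhythm calls were 2103 in wild type total exons (3592 without them), 1184 in nono-/- nuclear exons (3235), 498 in wild type nuclear exons (1105), 1884 in nono-/- nuclear introns (3827) and 1205 in wild type nuclear introns (2496). As deposited, 762 genes were higher and 539 lower in nono-/- total exons (505 and 736 after scaling), 380 and 3398 in nuclear exons (1648 and 1956), and 187 and 2386 in the ratio (1027 and 907), where the median gene moved by -0.20 and -0.21 in nuclear exons and the ratio. The causes of these shifts were not tested.

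With the time point as a replicate block, no call on the 8 genes changed, and over all genes 1388 total exon, 4024 nuclear exon, 2692 nuclear intron and 1120 ratio differences were called. Libraries of the 2 genotypes at the same time share only that time; their residuals correlated over 0.1 in 9, 7 and 9 of 12 pairs of total exons, nuclear exons and nuclear introns. Gadd45b and, in introns, Cdkn1a, Gadd45a and Gadd45g rest on a few reads in some libraries, which limits their precision.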

Other observations

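Introns in total RNA, which entered no test, were low for these genes and lay beside a smaller intron share in nono-/- total RNA. Mdm2 introns averaged 0.807 ± 0.176 FPKM in nono-/- and 0.986 ± 0.0960 FPKM in wild type total RNA (SD, n = 12 each, as for the values that follow). Cdkn1a introns averaged 0.0348 ± 0.0293 FPKM in nono-/- and 0.0914 ± 0.105 FPKM in wild type total RNA, on 32 and 93 reads. Wee1 introns had 0.157 ± 0.129 FPKM in nono-/- and 0.173 ± 0.122 FPKM in wild type total RNA, Ccnd1 introns 0.125 ± 0.0612 FPKM in nono-/- and 0.137 ± 0.0565 FPKM in wild type total RNA, and Gadd45g introns 0.969 ± 1.07 FPKM in nono-/- and 0.700 ± 0.714 FPKM in wild type total RNA. Myc introns had 0.0960 ± 0.155 FPKM in nono-/- and 0.0889 ± 0.0890 FPKM in wild type total RNA. For Gadd45a the values were 0.134 ± 0.128 FPKM in nono-/- and 0.134 ± 0.107 FPKM in wild type total RNA. For Gadd45b they were 0.0244 ± 0.0463 FPKM in nono-/- and 0.0220 ± 0.0403 FPKM in wild type total RNA. These SDs run over the 12 times of day and hold any daily rhythm, so they do not measure the uncertainty of a genotype difference. The part of the smaller intron share in these means was not tested.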
